A study of Mus musculus with 2 samples.

Results

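The genes described here are 36 named mouse genes of the germline, among them 4 of the X-linked Rhox homeobox genes, which are known to be silenced by DNA methylation in somatic cells. They were chosen by name and function and were looked up by gene identifier, so that a gene listed under an older symbol was found (Tex19.1 is listed as Tex19). Of the 36 genes, 26 were listed among the 13620 genes of the deposited table. Any other gene with a Rhox symbol was to be added, and none was found. Sycp2, Smc1b, Asz1, Tdrd9, Tex101, Dpep3, Tuba3b, Nxf2, Mageb4 and Rhox13 were not listed and were not analysed here.

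The values come from polyadenylated RNA of mouse embryonic stem (ES) cells on a C57BL/6J background. The cells of genotype Fbxl10 T/T gave 1 library, and the wild-type cells gave 1. Both were grown in serum with leukemia inhibitory factor on inactivated fibroblast feeder cells, which were depleted by plating before use. Fbxl10 is an older symbol of Kdm2b, whose protein binds unmethylated CpG islands as part of a variant Polycomb complex. The labels do not say how the T allele alters the gene, whether the lines were cloned or how many cultures were used. With 1 library per genotype no difference was tested, and "higher" and "lower" describe these 2 libraries. Levels are given as normalised CPM, the authors' read counts per 1000000 of a scaled library size, in which 1 read was worth 0.0405 CPM in Fbxl10 T/T and 0.0419 CPM in wild type. The listed genes held 27109446 reads in Fbxl10 T/T and 21198574 in wild type. Kdm2b itself was at 10.6 CPM in Fbxl10 T/T against 102.5 CPM in wild type. The ES markers Pou5f1, Nanog and Sox2 were present in both libraries, at 256.6, 48.8 and 30.9 CPM in Fbxl10 T/T against 1328, 782.5 and 518.1 CPM in wild type. DNA methylation was not analysed here.

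Germ cells carry a set of genes for meiosis and for the defence against transposons that other cells keep silent. At many of these genes the promoter is a CpG island that gains DNA methylation around implantation, and the repressor E2F6 and the variant Polycomb complex PRC1.6, which contains MGA and MAX, also act there. Mouse ES cells in serum transcribe some of the genes at low levels. Meiotic entry is driven by STRA8 in response to retinoic acid, the homologous chromosomes are then joined by the synaptonemal complex, and PIWI proteins with piRNAs silence transposons. The Rhox genes form a cluster of homeobox genes with roles in reproductive tissues and placenta.

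The starts of 6 of these genes are shown as examples from the main roles, with and without the motifs searched below. Each sequence runs from 250 bases before to 50 bases after the start, from RefSeq on GRCm38.p6. Capitals mark 3 searched motifs on either strand: CACGTG, the E-box bound by MAX dimers; GCGGGA, the core of E2F sites; and CNCCTCAG, a motif at promoters bound by mouse STRA8. Stra8 (chr6:34920698-34920997, plus strand) had the lowest log2 ratio with 0.5 CPM added. Taf7l (chrX:134476441-134476740, minus strand) is X-linked, and Stag3 (chr5:138280259-138280558, plus strand) encodes a cohesin subunit. Hormad1 (chr3:95559427-95559726, plus strand) had 0 reads in Fbxl10 T/T, Mael (chr1:166238695-166238994, minus strand) acts in the piRNA pathway, and Brdt (chr5:107330944-107331243, plus strand) was the higher gene.
Stra8: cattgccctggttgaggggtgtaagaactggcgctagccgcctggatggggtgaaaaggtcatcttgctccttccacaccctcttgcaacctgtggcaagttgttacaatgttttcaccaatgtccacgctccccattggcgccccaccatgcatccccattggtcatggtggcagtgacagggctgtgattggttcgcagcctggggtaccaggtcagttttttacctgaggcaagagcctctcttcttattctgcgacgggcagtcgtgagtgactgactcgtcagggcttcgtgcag
Taf7l: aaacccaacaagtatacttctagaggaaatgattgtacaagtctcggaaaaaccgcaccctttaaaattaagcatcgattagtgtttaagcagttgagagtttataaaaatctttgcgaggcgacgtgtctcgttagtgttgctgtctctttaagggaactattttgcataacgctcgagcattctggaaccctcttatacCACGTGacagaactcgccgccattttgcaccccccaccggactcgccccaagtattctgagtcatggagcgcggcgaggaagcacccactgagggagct
Stag3: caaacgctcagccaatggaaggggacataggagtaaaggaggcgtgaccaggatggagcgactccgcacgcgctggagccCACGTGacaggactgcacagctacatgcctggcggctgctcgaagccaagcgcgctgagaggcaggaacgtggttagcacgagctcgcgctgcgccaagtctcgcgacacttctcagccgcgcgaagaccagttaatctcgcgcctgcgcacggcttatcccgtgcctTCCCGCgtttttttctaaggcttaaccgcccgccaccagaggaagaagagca
Hormad1: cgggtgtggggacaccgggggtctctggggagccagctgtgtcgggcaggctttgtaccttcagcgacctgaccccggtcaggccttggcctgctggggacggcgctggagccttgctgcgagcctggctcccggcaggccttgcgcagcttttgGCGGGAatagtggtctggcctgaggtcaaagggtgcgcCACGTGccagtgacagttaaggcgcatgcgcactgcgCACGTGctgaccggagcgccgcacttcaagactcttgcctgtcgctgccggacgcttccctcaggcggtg
Mael: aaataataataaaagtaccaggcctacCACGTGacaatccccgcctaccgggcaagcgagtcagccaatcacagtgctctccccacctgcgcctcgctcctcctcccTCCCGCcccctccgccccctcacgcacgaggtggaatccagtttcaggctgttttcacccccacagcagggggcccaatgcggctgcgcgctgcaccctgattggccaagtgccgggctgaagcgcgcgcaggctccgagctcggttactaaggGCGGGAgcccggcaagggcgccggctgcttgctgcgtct
Brdt: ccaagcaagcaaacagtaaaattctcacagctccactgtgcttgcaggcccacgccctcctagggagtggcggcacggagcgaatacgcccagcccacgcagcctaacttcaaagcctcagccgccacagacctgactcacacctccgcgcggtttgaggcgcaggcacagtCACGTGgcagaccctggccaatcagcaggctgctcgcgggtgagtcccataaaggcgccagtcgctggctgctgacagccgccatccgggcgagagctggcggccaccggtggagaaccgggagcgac

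CACGTG occurred in several of these starts. It begins 49 bases before the start in Taf7l, 170 before in Stag3, 57 and 20 before in Hormad1, 223 before in Mael and 78 before in Brdt. Stra8 held none of the 3 motifs. A promoter was found in the RefSeq table for 32 of the 36 genes. CACGTG stood in 14 of the 32 (43.8%) and in 12 of the 22 listed members (54.5%), against 10.7% of the 10110 listed genes with a promoter and 7.39% of promoters of 27025 genes. GCGGGA stood in 12 of the 32 (37.5%), and in 10 of the 22 listed members (45.5%), against 39.2% of all listed genes and 21.1% of all promoters. CNCCTCAG stood in 6 of the 32 (18.8%), against 9.24% of listed genes and 8.00% of all promoters. The median number of CpG dinucleotides in the window was 19 for the 32 genes, from 0 in Rhox1 to 38 in Ddx4, against 22 for the listed genes and 8 for all promoters. Presence of CACGTG did not sort the genes by their ratio: the median log2 ratio was -2.69 in the 12 listed genes with it and -3.44 in the 10 without it. A match is a string of letters, and binding was not measured here.

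Nearly all of the germline genes were lower in the Fbxl10 T/T library. Of the 26 listed genes, 24 were at least 2-fold lower, 1 (Brdt) was at least 2-fold higher and 1 (Tdrkh) had a smaller ratio. The ratios were taken after adding 0.5 to both CPM values, so that those of scarce genes come out too small. Over the 13512 genes that reached 1 CPM in either library, 20.6% were 2-fold lower and 14.8% were 2-fold higher. At a 4-fold threshold 21 of the 26 were lower, against 9.1% of all genes. At 8-fold 14 were lower, against 2.91%. The median log2 ratio of Fbxl10 T/T over wild type was -3.17 in the 26 genes and 0.01 in all listed genes.

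**Figure D1:**
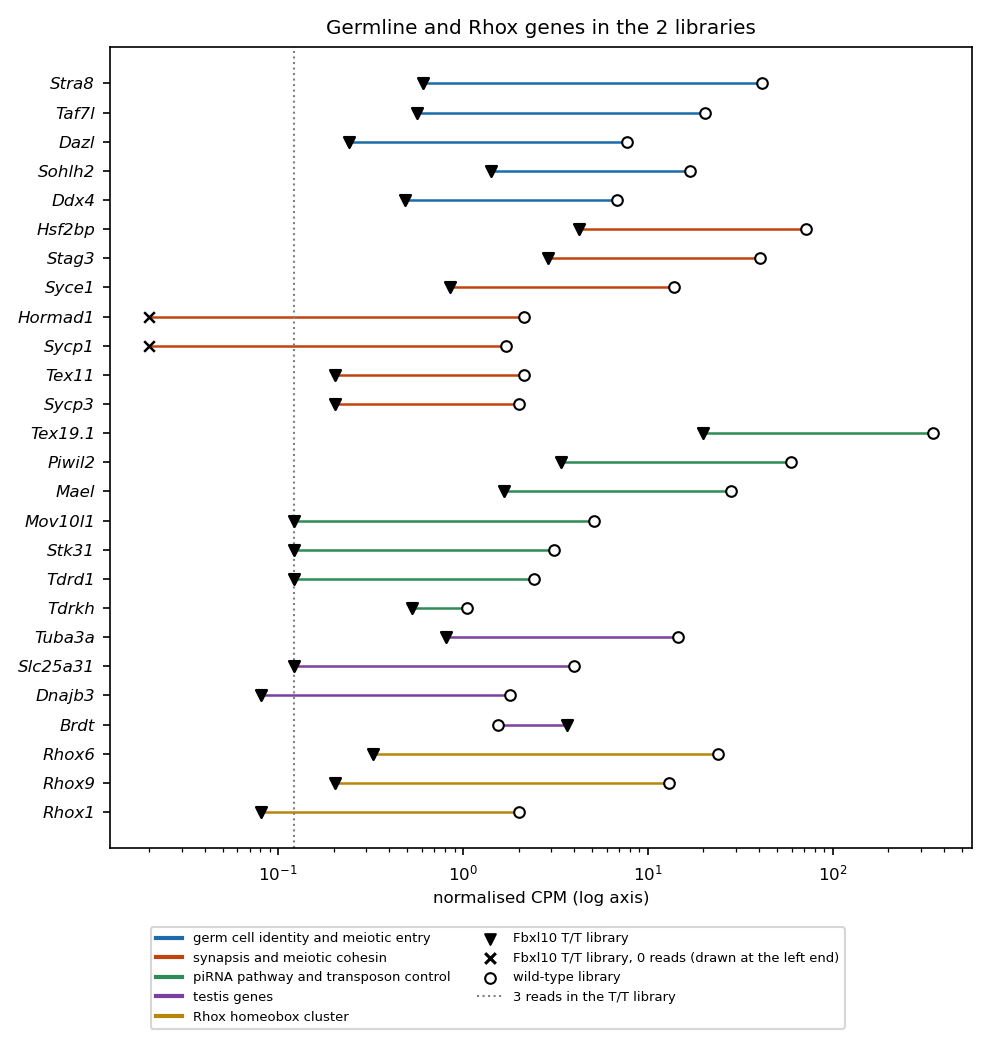
Normalised CPM (log axis) of the 26 listed genes in the Fbxl10 T/T library (triangles) and the wild-type library (circles), grouped by role; crosses are genes with 0 reads in Fbxl10 T/T. All genes except Brdt have the triangle to the left of the circle, and Tdrkh has the shortest distance among these.

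The table lists a gene only if it had at least 28 reads in Fbxl10 T/T or 22 in wild type, and this shapes the count. Of the 26 genes, 19 reached 1 CPM in wild type and not in Fbxl10 T/T, so most were listed through the library in which they were high. The counts and the median therefore describe the listed members, and genes at low levels of any kind were often lower. Among the 3126 genes with a mean of both libraries below 5 CPM, 44.7% were 2-fold lower, as were 12 of the 14 germline genes at that level. At higher levels the background was smaller. Of the 5991 genes with a mean of 5 to 50 CPM, 17.4% were 2-fold and 4.56% 8-fold lower, and all 11 germline genes there were 8-fold lower. Tex19.1 was the single member with a mean of 50 CPM or more, where 57 of 4395 genes were 8-fold lower, and it was among them. Of the 12 members with a mean of 5 CPM or more, 6 reached 1 CPM in wild type alone. The members were also chosen with earlier results of these data known, so the shares at these levels are a description too.

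**Figure D2:**
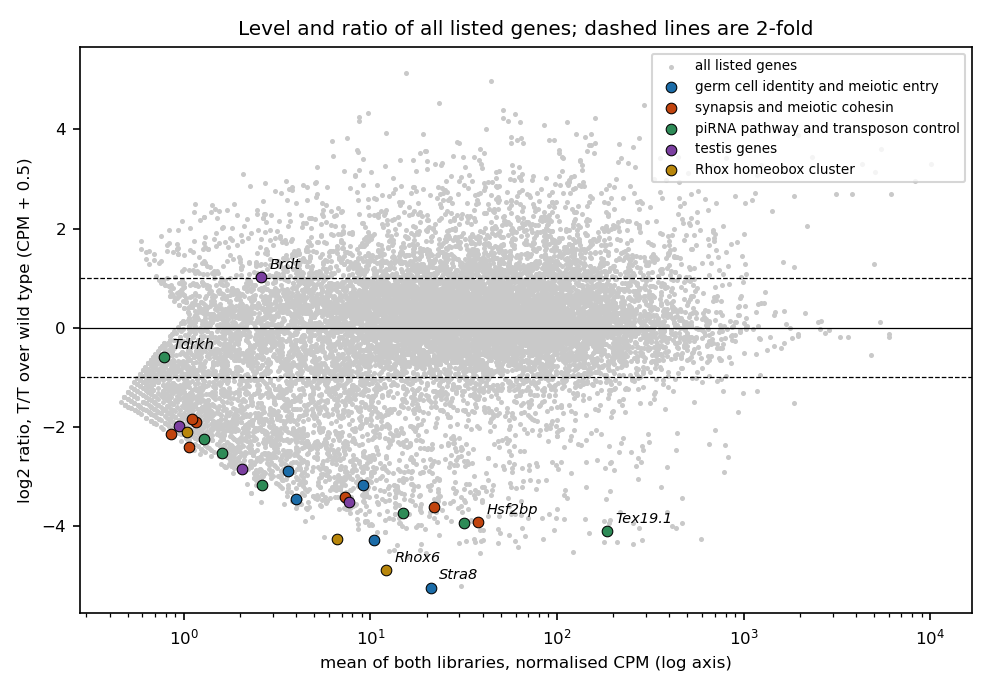
Log2 ratio of Fbxl10 T/T over wild type (CPM + 0.5) against the mean of both libraries (log axis) for all 13620 listed genes (grey) and the 26 germline and Rhox genes (coloured by role). Stra8 and Rhox6 lie at the lower edge of all genes, Brdt lies at 1.02 and Tdrkh at -0.59.

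The regulators of germ cell identity and meiotic entry were lower in all 5 cases, with a median log2 ratio of -3.46. Stra8, the retinoic acid-induced gatekeeper of meiosis, was at 0.608 CPM (15 reads) in Fbxl10 T/T against 41.5 CPM (990 reads) in wild type. This is 68.2-fold lower, with an exact binomial (Clopper-Pearson) 95% interval of 41.2- to 122.4-fold that covers counting error only. Stra8 (ENSMUSG00000029848, chromosome 6 from 34870163 to 34889342 in mm9) had the lowest log2 ratio of all 13620 genes, at -5.24 with 0.5 CPM added. Without this addition Rhox6 was further below its wild-type level (73.9-fold), and 45 listed genes had 0 reads in Fbxl10 T/T. Taf7l, an X-linked paralogue of the TFIID subunit gene Taf7, was at 0.567 CPM in Fbxl10 T/T against 20.4 CPM in wild type (35.9-fold lower, interval 21.2 to 66.1). Dazl, which encodes an RNA-binding protein needed for germ cells to enter gametogenesis, was at 0.243 against 7.70 CPM, 31.7-fold lower. Sohlh2, a bHLH factor gene of early spermatogonia and oocytes, and Ddx4, the germ-cell RNA helicase gene Vasa, had the smallest differences of this group. Sohlh2 was at 1.42 CPM in Fbxl10 T/T against 16.8 CPM in wild type (11.9-fold lower). Ddx4 was at 0.486 against 6.78 CPM (14.0-fold lower). The intervals of Stra8 and Sohlh2 (8.40 to 17.3) did not overlap. Within the group the size of the difference thus varied beyond the counting error of independent reads.

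The genes of synapsis, meiotic cohesin and recombination were lower in all 7 listed cases, with a median log2 ratio of -2.40. Hsf2bp, whose protein binds BRCA2 during meiotic recombination, was the most abundant of them per library, at 4.25 CPM in Fbxl10 T/T against 71.6 CPM in wild type (16.8-fold lower, interval 13.8 to 20.7). Stag3, a meiosis-specific cohesin subunit gene, was at 2.88 against 40.7 CPM (14.2-fold lower, interval 11.1 to 18.3). Syce1, a central element gene of the synaptonemal complex, was at 0.851 against 13.8 CPM (16.2-fold lower). These 3 genes differed by similar factors and their intervals overlapped. The other 4 genes were scarce in both libraries. Hormad1, an axis protein gene, had 0 reads in Fbxl10 T/T against 51 reads (2.14 CPM) in wild type. Sycp1, which encodes the transverse filament, had 0 against 41 reads (1.72 CPM). Of the 50-base stretches of Hormad1, 21.4% also occur in Gm15529, so its level is uncertain. Against a floor of 3 reads in the Fbxl10 T/T library (0.122 CPM), Hormad1 was 17.6-fold and Sycp1 14.1-fold lower. This floor leaves out the counting error of the wild-type reads. With both libraries counted, the exact binomial intervals had lower bounds of 13.78-fold for Hormad1 and 10.98-fold for Sycp1. Sycp3, a lateral element gene, and the X-linked recombination gene Tex11 both had 5 reads in Fbxl10 T/T, against 48 and 51 reads in wild type, so that their ratios are loosely bounded (3.97 to 31.9 and 4.24 to 33.9). Sycp3 overlaps Chpt1 in the table's coordinates and 43.0% of its 50-base stretches in GENCODE M21 also occur in Chpt1 transcripts, which makes its level uncertain; Chpt1 was at 42.5 CPM in Fbxl10 T/T against 10.4 CPM in wild type.

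The piRNA and transposon-control genes were lower in 6 of 7 listed cases, with a median log2 ratio of -3.17. Tex19.1, a mammal-specific gene that restrains retrotransposons in germ cells and placenta, was at 19.8 CPM (489 reads) in Fbxl10 T/T against 348.8 CPM (8330 reads) in wild type. It was 17.6-fold lower with the narrowest interval of the set, 16.1 to 19.3. Piwil2, the PIWI protein gene Mili, was at 3.40 against 59.7 CPM (17.5-fold lower, interval 14.1 to 22.1). Mael, a germ-granule protein gene, was at 1.66 against 28.2 CPM (17.0-fold lower, interval 12.4 to 23.9). These 3 genes were thus lower by nearly the same factor although their levels were far apart. Mov10l1, the helicase gene that feeds precursors to piRNA production, had 3 reads in Fbxl10 T/T against 122 in wild type (42.0-fold lower, interval 14.0 to 206.7). Stk31 and Tdrd1, both genes of Tudor-domain proteins, also had 3 reads in Fbxl10 T/T, against 74 and 58 in wild type, and their intervals were 8.39 to 126.5 and 6.51 to 99.7. Tdrkh, which encodes a mitochondrial Tudor protein for piRNA trimming, was the exception, at 0.527 CPM (13 reads) in Fbxl10 T/T against 1.05 CPM (25 reads) in wild type. Its interval of 0.979- to 4.23-fold lower included no difference, and 34.7% of its 50-base stretches are shared with Oaz3, so its level is uncertain.

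Genes known mainly for expression in testis were mixed, with 3 of 4 listed genes lower. Tuba3a, a testis alpha-tubulin gene, was at 0.810 CPM in Fbxl10 T/T against 14.5 CPM in wild type (17.9-fold lower, interval 11.4 to 29.6). The near copy Tuba3b shares 32.4% of the 50-base stretches of Tuba3a, so reads could have been split between them. Slc25a31, the germ-cell ATP/ADP carrier gene, had 3 reads in Fbxl10 T/T against 95 in wild type (32.7-fold lower, interval 10.9 to 161.5). Dnajb3, a spermatid co-chaperone gene, had 2 reads against 43 (22.2-fold lower, interval 5.79 to 189.4). Brdt, the testis member of the BET bromodomain family, stood at 235.3% of its wild-type level (interval 158.8 to 355.0%), at 3.65 CPM (90 reads) in Fbxl10 T/T against 1.55 CPM (37 reads) in wild type. Its log2 ratio of 1.02 lay at the 2-fold threshold, and after each of the 3 rescalings of the libraries it was still above 0 but below 2-fold. Brdt lies on chromosome 5 from 107760194 to 107816077 in mm9.

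All 3 listed Rhox genes were lower, with a median log2 ratio of -4.27. Rhox6 was at 0.324 CPM (8 reads) in Fbxl10 T/T against 23.95 CPM (572 reads) in wild type, 73.9-fold lower (interval 37.3 to 172.0). It had the lowest log2 ratio of all listed genes on chromosome X, at -4.89 with 0.5 CPM added. Rhox9 was at 0.203 CPM (5 reads) against 13.0 CPM (311 reads), 64.3-fold lower (interval 27.3 to 199.4). Rhox6 and Rhox9 are close paralogues, and 16.5% of the 50-base stretches of Rhox6 also occur in Rhox9. Rhox1 had 2 reads against 48 (24.8-fold lower, with an upper bound of 210.7); its entry carries the symbols Rhox3b and Rhox1. Other entries that carry Rhox3b beside a second symbol belong by identifier to Nkap and Upf3b and were not counted as Rhox genes.

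Most listed genes around the Rhox genes were within 2-fold, as were most listed genes of chromosome X. In mm9 the 3 genes lie on chromosome X, Rhox1 from 34753799 to 34762253, Rhox6 from 35180224 to 35183030 and Rhox9 from 35252276 to 35254947. Within 500 kb on either side of this stretch the table lists 12 other genes, of which 10 were within 2-fold, 2 were lower and 0 higher. Of the 493 genes of chromosome X that reached 1 CPM in either library, 286 were within 2-fold, 122 lower (24.7%) and 85 higher. Nkap was at 13.6 CPM in Fbxl10 T/T against 15.7 CPM in wild type, Upf3b at 7.21 against 9.59 CPM, and Zbtb33 at 4.13 against 4.15 CPM. The lower genes were Sept6, at 3.56 against 10.01 CPM, and the pseudogene Dppa3-ps inside the cluster, with 9 against 44 reads. All 5 X-linked members (Taf7l, Tex11 and the 3 Rhox genes) were listed through wild type alone, so none of them could have been counted as higher.

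The genes on either side of the members mostly had ratios unlike theirs. The nearest listed gene on each side, without overlap and other than a member, gave 49 distinct neighbours at a median distance of 28.5 kb. Of these 14 were 2-fold lower (28.6%, against 20.6% of all genes), 9 were higher and 26 lay in between, and their median log2 ratio was -0.004, against -3.17 for the germline genes. The 19 members that reached 1 CPM in wild type alone had to be lower, so this comparison of medians is a description only. Around Stra8, Wdr91 was higher, at 66.4 CPM in Fbxl10 T/T against 22.5 CPM in wild type, and Slc23a4 was lower, with 0.081 against 1.05 CPM. Around Piwil2 and Slc25a31 all 4 neighbours were within 2-fold. In 5 of 52 pairs the neighbour had the lower ratio of the pair, among them Gpa33 beside Mael (9.80 against 235.1 CPM) and Slc7a3 beside Tex11 (23.0 against 359.1 CPM). Both neighbours of Brdt were higher, Tgfbr3 at 22.1 against 10.3 CPM and Ephx4 at 6.12 against 1.09 CPM. These neighbours were picked after their values were seen.

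**Figure D3:**
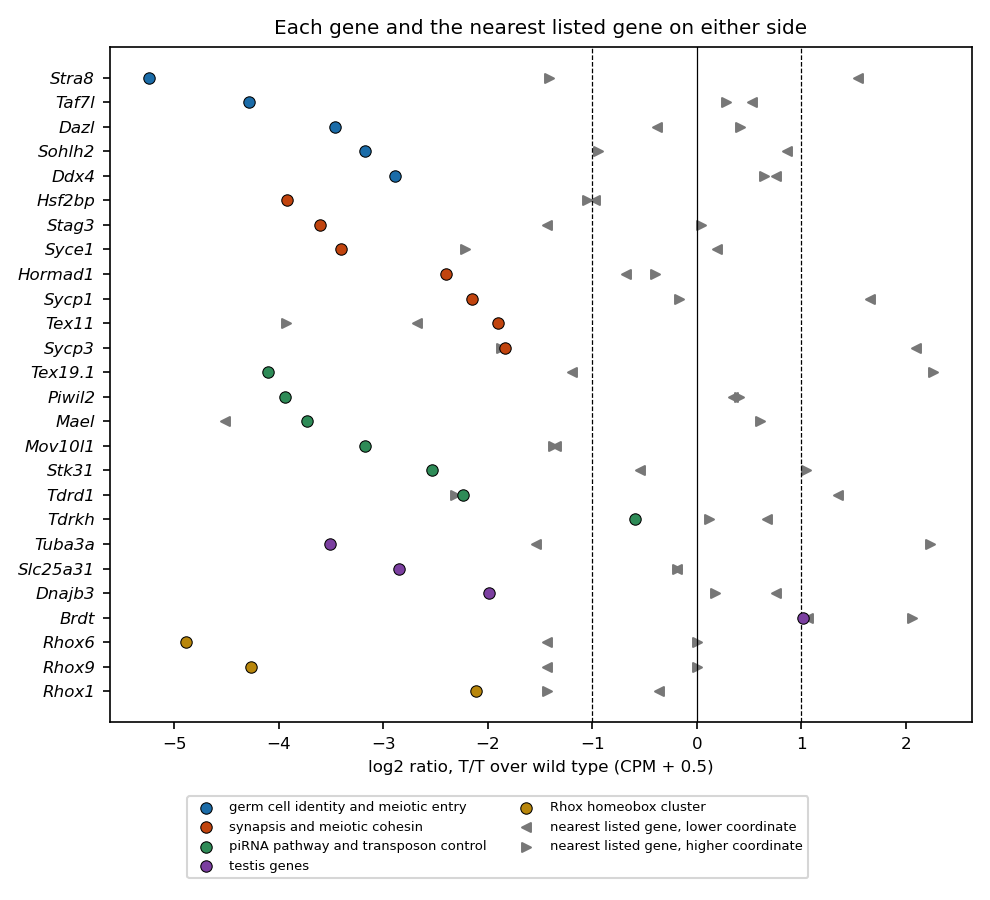
Log2 ratio of Fbxl10 T/T over wild type for each germline or Rhox gene (coloured) and for the nearest listed gene at lower and at higher coordinates (grey arrowheads); dashed lines are 2-fold. Arrowheads lie to the right of the coloured point of their row except for 5, at Mael, Tex11 (2), Tdrd1 and Sycp3.

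The share of the wild-type level that was left is best bounded in the 12 members with at least 300 wild-type reads. This limit was set after the data were seen and uses the library in which the members were high, so the values are a description. Tuba3a kept 5.59%, Tex19.1 5.68%, Piwil2 5.70%, Mael 5.88%, Hsf2bp 5.94%, Syce1 6.16%, Stag3 7.06% and Sohlh2 8.42%. Lower shares were left in Rhox6 (1.35%), Stra8 (1.47%), Rhox9 (1.56%) and Taf7l (2.79%), whose counting intervals lay wholly below that of Nanog (5.88 to 6.61%). The pluripotency factor genes Sox2, Esrrb and Nanog kept 5.97, 6.02 and 6.23%. In the whole set the intervals of 20 of the 26 members overlapped that of Nanog, among them those of Tex19.1 and Piwil2. The intervals of Tdrkh and Brdt lay above that of Nanog, and many members had too few Fbxl10 T/T reads for the comparison. How many of all listed genes overlapped the interval of Nanog, or lay below or above it, was not counted. The counts of members are therefore a description against this 1 gene. The other pluripotency markers kept between 4.83% (Nr0b1) and 116.8% (Tbx3), with 5.15% for Tdgf1, 19.3% for Pou5f1 and 86.9% for Klf4. In RNA from a whole culture, fewer cells that express a gene and less RNA of it per cell cannot be told apart.

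**Figure D4:**
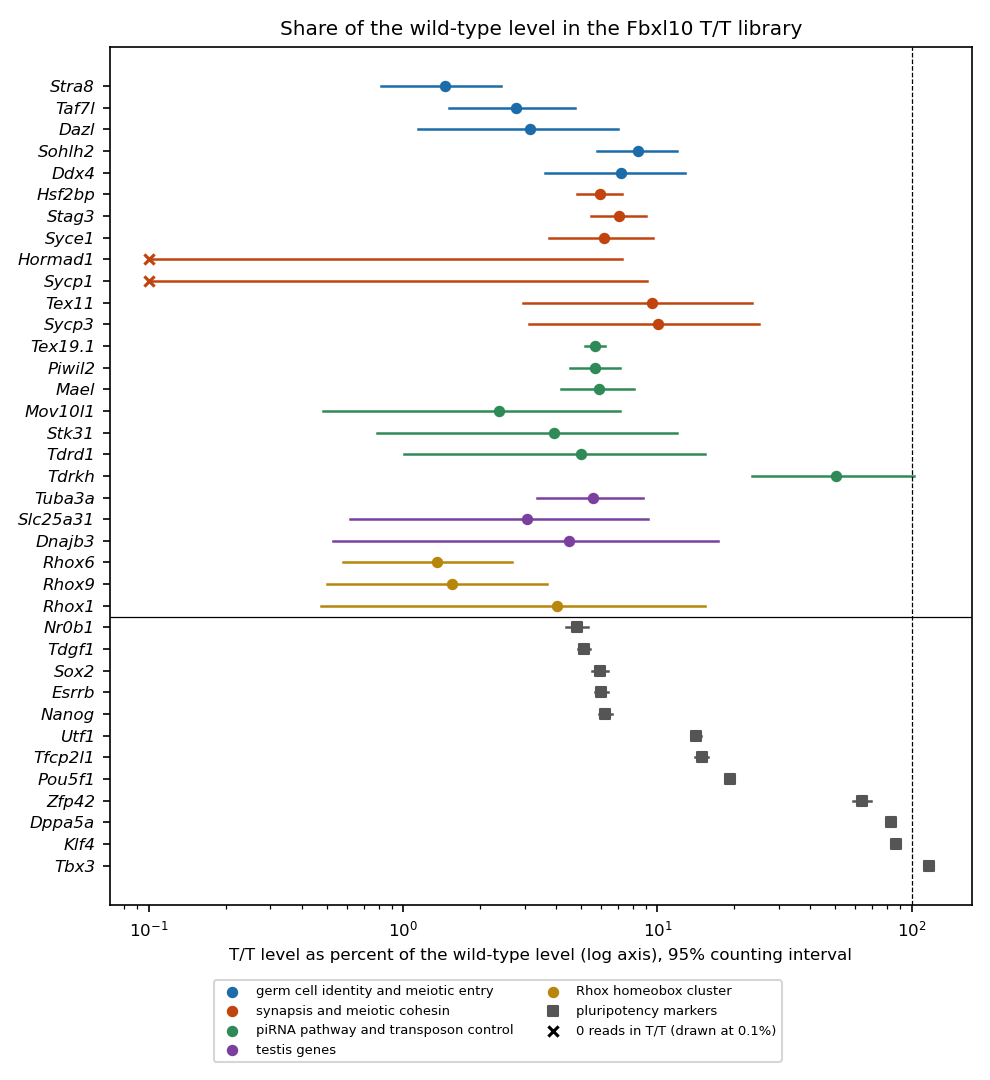
Level in the Fbxl10 T/T library as a percent of the wild-type level (log axis) with the 95% counting interval, for 25 germline and Rhox genes (circles, Brdt left out) and 12 pluripotency markers (squares); crosses are genes with 0 reads. Stra8, Taf7l, Rhox6 and Rhox9 lie below Nanog (6.23%), Tdrkh lies at 50.3%, and members with few reads have wide intervals.

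Markers of other cell types differed between the libraries to unlike extents. Over all genes 20.6% were 2-fold lower and 14.8% were 2-fold higher. All 13 extraembryonic endoderm markers were at least 2-fold higher, with a summed level of 75044 CPM in Fbxl10 T/T against 8506 CPM in wild type, and none was at 0. Of 12 pluripotency markers 8 were lower (66.7%) and 0 higher (sum 2230 against 7781 CPM). Of 17 feeder fibroblast markers 16 were listed, and none of the 16 was at 0. Of these 3 were lower (18.75%, near the share of all genes) and 0 higher (sum 564.1 against 1022 CPM). Their log2 ratios ran from -2.64 in Twist1 to 0.44 in Postn, with a median of -0.84. Of 12 somatic gonad markers 7 were listed and 4 were lower (57.1%, sum 19.3 against 101.2 CPM), and Fshr, Cldn11, Cyp17a1, Insl3 and Hsd3b1 were not listed. The part of these shifts in the germline values was not tested.

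Per length of exon, Tex19.1 was the highest member in both libraries, at 11.4 CPM per kb in Fbxl10 T/T and 199.9 CPM per kb in wild type. Exon lengths were those of GENCODE M21, which may differ from the models the authors counted. In wild type Rhox6 (23.7 CPM per kb), Stra8 (23.0) and Hsf2bp (23.0) came next, and Mael (16.3) and Piwil2 (12.1) followed. The lowest members were Tdrkh at 0.170 and Brdt at 0.306 CPM per kb. In Fbxl10 T/T, Stra8 was at 0.337 and Rhox6 at 0.321 CPM per kb, below Hsf2bp at 1.37 and Mael at 0.958 CPM per kb.

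Other genes of the same pathways were lower less uniformly than the members, a difference that was not tested. Of 42 other meiotic prophase genes 26 were listed, and 13 were lower, 3 higher and 10 in between, with a median log2 ratio of -1.06. The meiotic cohesin gene Rec8 was at 0.770 CPM in Fbxl10 T/T against 13.7 CPM in wild type, the intercellular bridge gene Tex14 at 1.26 against 18.3 CPM, the histone reader gene Zcwpw1 at 1.26 against 13.6 CPM and the meiotic recombinase gene Dmc1 at 1.62 against 14.6 CPM. The higher genes were Prdm9, the methyltransferase gene that places recombination hotspots (6.76 against 0.544 CPM), Tex15 (8.14 against 3.31 CPM) and Msh5 (3.65 against 1.51 CPM). Msh5 acts in crossover formation and Tex15 in piRNA-directed silencing, and after rescaling to the upper quartile or the column sum 1 of the 3, Prdm9, was still 2-fold higher.

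Of 22 other piRNA genes 15 were listed. Of these 9 were lower (60%, against 20.6% of all genes), 2 higher and 4 in between (median -1.07). The trimming nuclease gene Pnldc1 was at 1.42 CPM in Fbxl10 T/T against 25.5 CPM in wild type, the Tudor gene Tdrd12 at 0.486 against 10.5 CPM, the co-chaperone gene Fkbp6 at 1.05 against 13.5 CPM and Rnf17, also a Tudor gene, at 0.932 against 11.1 CPM. The higher genes were the Tudor genes Tdrd7, at 27.1 against 5.19 CPM, and Tdrd5, at 10.3 against 2.93 CPM. Of 54 other testis genes or their relatives 15 were listed, with 3 lower (20%, against 20.6% of all genes) and 2 higher (median -0.29). D1Pas1, a testis DEAD-box gene, was at 0.891 against 12.8 CPM and the X-linked Fthl17a had 1 read against 58. Protamine and transition protein genes (Prm1, Prm2, Tnp1, Tnp2) were not listed.

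The widely expressed relatives of the germline genes were mostly within 2-fold. Of 20 such paralogues, a list added after the first results, 2 were lower, 3 higher and 15 in between, with a median log2 ratio of -0.02. The lower ones were 10% of the list, against 20.6% of all genes, and 14.8% of all genes were higher. The cohesin genes Stag1 and Stag2 were at 21.9 and 12.7 CPM in Fbxl10 T/T against 14.0 and 10.7 CPM in wild type, while Stag3 was 14.2-fold lower. Mov10 was at 98.2 against 108.0 CPM, while Mov10l1 had 3 against 122 reads. Taf7 was at 117.3 against 55.4 CPM and Slc25a4 at 562.8 against 149.0 CPM, in the opposite direction to Taf7l and Slc25a31. Within the BET family Brdt was higher while Brd3 was lower at 58.2 against 192.0 CPM.

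Genes that specify primordial germ cells were lower in 14 of 18 listed cases (77.8%, against 20.6% of all genes) and higher in 1 (median -2.25). Bmp4 was at 2.67 CPM in Fbxl10 T/T against 62.2 CPM in wild type, Tfap2c at 4.01 against 76.2 CPM and Prdm14 had 32 against 647 reads. The higher gene was Kit, a receptor gene of germ cells and other lineages, with 211.2 CPM in Fbxl10 T/T against 41.3 CPM in wild type, and Nanos1 was at 12.9 against 13.2 CPM. Several genes of this list, such as Esrrb and Klf2, are also pluripotency genes. Of 32 genes listed with the repressors of the germline 10 were lower (31.25%, against 20.6% of all genes), 2 higher and 20 in between (median -0.36). This list also holds Kdm2b itself, which was lower, and the Tet dioxygenase genes. Its share is therefore not one of repressors alone. The PRC1.6 and E2F6 genes Pcgf6 (54.8 against 72.1 CPM), E2f6 (60.2 against 65.7 CPM) and Mga (30.6 against 27.8 CPM) were within 1.5-fold, and L3mbtl2 was at 95.6 against 211.5 CPM. Dnmt1 (216.2 against 238.8 CPM) and Dnmt3b (283.7 against 213.3 CPM) were also within 1.5-fold, whereas Dnmt3a was at 37.2 against 162.3 CPM. Tet1, the dioxygenase gene of ES cells, was at 15.6 against 113.6 CPM and Tet3 at 100.3 against 24.5 CPM.

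**Figure D5:**
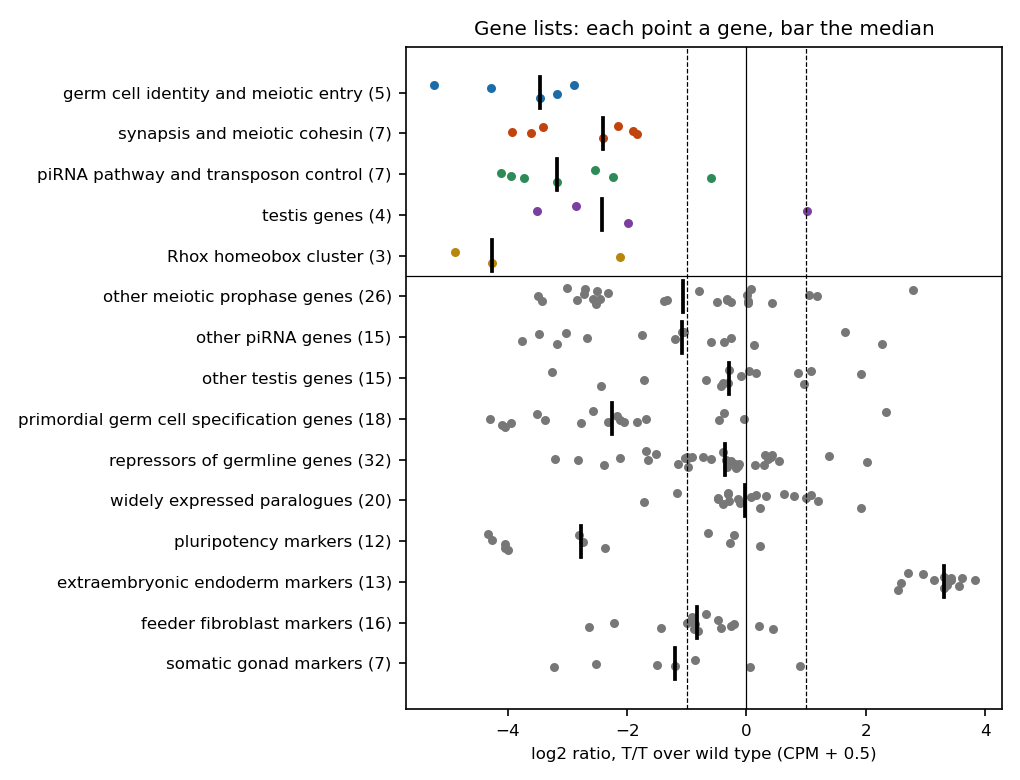
Log2 ratio of Fbxl10 T/T over wild type (CPM + 0.5) for each gene of the 5 germline and Rhox groups (top, coloured) and of the other lists (grey), with the number of listed genes in parentheses and the median as a bar; dashed lines are 2-fold. The medians of the 5 groups lie between -4.27 and -2.40, those of the widely expressed paralogues and of the extraembryonic endoderm markers at -0.02 and 3.31.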

How the data were processed

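The submitters' processing notes name mm9, TopHat 1.4.1, HTSeq 0.5.3p9 and edgeR; what each did, and whether counting used strand, is not stated there. The deposited signal behaves as normalised CPM: the columns sum to 1098136 in Fbxl10 T/T and 887645 in wild type, and 100% of values were whole multiples of 1 step per library within 0.01 reads, so reads were recovered. The authors' deposited log2 ratio, wild type over T/T, differed by at most 0.0028 from the log2 of the signals in 9311 genes with 5 CPM or above in each library. Of 24706 rows 11086 were repeats, leaving 13620 genes, and GENCODE M21 named 13443.

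Ratios used a pseudocount of 0.5 CPM and a 2-fold threshold, with a minimum of 1 CPM in either library. Intervals (95%) cover counting error only, since each genotype had 1 library. They treat reads as independent, which PCR copies are not, so they may be too narrow. The floor of 3 reads covers the counting error of the Fbxl10 T/T reads alone. An added exact binomial test of the recovered reads (Benjamini-Hochberg adjusted, 0.05) compared the libraries, not the genotypes, and called 11372 genes, 5580 lower and 5792 higher in Fbxl10 T/T. Shared sequence was counted as 50-base stretches of M21 transcripts. The steps were run on simulated reads with counting error alone, which checks the code and says nothing about spread between cultures. All listed members are named, with up to 4 genes at either end of the other lists; further genes, the motifs and the paralogues were picked after values were seen. The members and lists were chosen with earlier results of these data known. Alternatives were other pseudocounts, minimums, scalings and thresholds. Work was done in Python 3.11.15 with pandas 2.3.3, numpy 2.4.6, matplotlib 3.10.9 and scipy 1.17.1.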

Additional observations from a re-analysis of the deposited data

How the results depend on the processing

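No paired analysis was possible because each genotype had 1 library, so none could be left out either. The log2 ratios of all 26 listed germline genes kept their sign under both other pseudocounts and the 3 rescalings. A pseudocount added to both values cannot change a sign, and the 3 rescalings all lowered the T/T values. Only the sign of Brdt could therefore have changed, so the kept signs of the lower genes are no check. A minimum leaves a ratio as it is and only drops genes. Rescaling to a common median, upper quartile or column sum lowered the T/T values by 0.13, 0.24 or 0.31 (log2) and gave a median ratio of all genes of -0.11, -0.22 or -0.28, against 0.01 as deposited. Under all 3, 24 members were lower, and Brdt was no longer past 2-fold, which left 0 higher members in all and 0 in the testis group. The same 0 and 0 were found with a pseudocount of 1, a 4-fold threshold, both minimums of 5 CPM and, as an alternative chosen after seeing the data, without Brdt.

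A pseudocount of 0.1 moved the medians to -4.01 (all members), -3.70 (testis genes) and -5.44 (Rhox), and one of 1 moved those of meiotic entry to -2.88 and synapsis to -1.65; a pseudocount shrinks low ratios by construction. With a minimum of 5 CPM in 1 library 15 of 15 members were lower, with 3 for synapsis and 1 for testis genes and 7 for other meiotic genes. With 5 CPM in the mean these were 12 of 12 (median -3.93), 3, 1 and 6 (with 1 other meiotic gene higher), and 3 each for meiotic entry and piRNA genes. Fewer genes were counted there. Higher genes among other testis genes numbered 4 with a pseudocount of 0.1 or a 1.5-fold threshold, 1 after each rescaling and 0 at 4-fold. Higher paralogues numbered 5, 6 and 0 under those settings, and 1 after upper quartile or column sum rescaling. Higher other meiotic genes numbered 1 under these 2 rescalings and at 4-fold. At 4-fold 5 other piRNA genes were lower and 1 higher, 4 genes of the repressor list lower and 1 higher, and 0 paralogues lower. Depth limits the 8 members with 3 or fewer reads in Fbxl10 T/T.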
